A study of Homo sapiens with 4 samples.

Results

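The receptors, ligands, nuclear partners and targets of the Notch pathway were followed in U87 cells, an established human glioblastoma line, kept with or without carnosine, the dipeptide beta-alanyl-L-histidine. The 10 genes, NOTCH1, NOTCH2, NOTCH3, JAG1, JAG2, RBPJ, MAML2, HES1, HEY1 and HEY2, were taken by symbol from a table of 58219 genes, and each symbol matched 1 row. The carnosine group held 2 libraries from cells given fresh medium with 50 mM carnosine for 24 h, and the control group held 2 libraries from cells given the same medium without it. Both groups grew in medium with 4.5 g/L glucose and 10% serum, and total RNA was depleted of ribosomal RNA before sequencing. The comparison asks which transcripts differ when carnosine is present.

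Notch receptors are single-pass membrane proteins that bind Delta-like or Jagged ligands on a neighbouring cell. Binding lets ADAM proteases and then gamma-secretase cut the receptor, and the freed intracellular domain joins the DNA-binding protein RBPJ and a Mastermind-like coactivator in the nucleus. Genes of the HES and HEY families, which code for basic helix-loop-helix repressors, are among the best known direct targets. In glioblastoma the pathway is mainly studied for its part in keeping cells in a stem-like state.

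RBPJ binds the letters GTGGGAA, and 2 of the target genes carried them in the 250 bases before their RefSeq start site. The stretches are shown to place these letters, in lower case with the match in capitals, from 5′ to 3′ on the plus strand (RefSeq, GRCh38.p14). Whether RBPJ binds these stretches was not tested. HES1 had its match on its own strand, beginning 85 bases before the start, and HEY2 had it on the opposite strand, where it reads TTCCCAC, beginning 213 bases before the start. A further match in HEY2 crosses the start or lies in the 50 bases after it, and is not counted. The HES1 stretch is chr3:194136016-194136115 and the HEY2 stretch is chr6:125749382-125749481.
HES1: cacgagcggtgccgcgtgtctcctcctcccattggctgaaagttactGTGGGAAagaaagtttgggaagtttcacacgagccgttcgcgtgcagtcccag
HEY2: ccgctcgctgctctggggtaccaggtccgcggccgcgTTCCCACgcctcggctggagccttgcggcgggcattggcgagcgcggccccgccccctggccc
Of the 9 genes with a window here (all but HEY1), 3 held a match on either strand, the third being RBPJ with 2 matches before 1 of its 5 start sites. Among 27305 genes with a window, 6.69% held at least 1 match. The windows of NOTCH1, NOTCH2, NOTCH3, JAG1, JAG2 and MAML2 did not contain these letters.

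The libraries held between 51632970 and 71766267 gene counts. Of the 9 markers of a glioblastoma line, VIM had 283462 to 527581 counts, CD44 64968 to 91079 and NES 1426 to 2583. The glial genes SLC1A3 and OLIG2 had 4989 to 9484 and 105 to 253 counts, while GFAP had 4 to 16, SOX2 0 to 2, and S100B and AQP4 had 0 in every library. Markers of other cells were also counted. The neuronal genes SNAP25 and SYP had 454 to 1283 and 42 to 48 counts. The endothelial gene PECAM1 had 365 and 265 counts with carnosine and 148 and 153 in the controls, and VWF had 14 to 42. CD14 had 16 to 24, KDR 2 to 8 and PTPRC 0 to 8, while CDH5, AIF1, CD3E, RBFOX3 and STMN2 had 0 in every library. Whether the replicates of a group came from different cultures is not stated in the labels, so the p-values measure a spread that may be technical. In bulk RNA, fewer cells of a kind and less RNA per cell cannot be told apart.

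None of the 10 genes passed the test for a difference between carnosine and control. edgeR's quasi-likelihood test, adjusted over 16340 genes with a threshold of 0.05, called 0 of the 10, where it called 8.31% of all genes tested. At an unadjusted p under 0.05 there were 4 (NOTCH1, JAG1, JAG2 and HES1), against 27.4% of all genes. DESeq2 and limma-voom also called 0 of the 10, where they called 13.5% and 8.09% of all genes, though DESeq2 gave HES1 and JAG2 no adjusted p. In counts scaled to library size with TMM factors (CPM), the groups did not overlap for 7 of the 10 genes, against 56.5% of all genes. Of the 7, 5 were higher and 2 lower with carnosine, against 27.8% and 28.8% of all genes. The median log2 fold change of the 10 was 0.41, and that of all genes tested was 0.001. HES1 and JAG2 had 10 or more counts in the carnosine libraries only and passed the filter on low counts only because they were high there, so their difference is part of why they were tested. For the other 8 genes the median was 0.31, the groups did not overlap for 5, and 2 had an unadjusted p under 0.05.

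**Figure D1:**
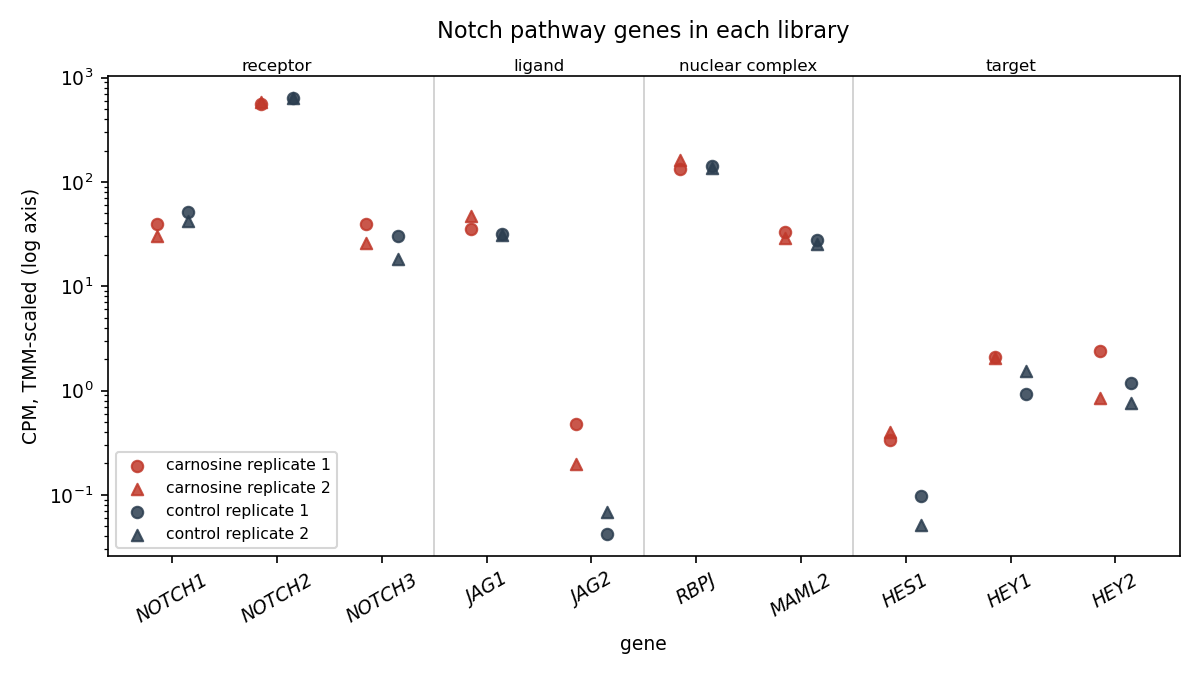
Expression of the 10 genes in each library, as TMM-scaled CPM on a log axis, with carnosine libraries in red and control libraries in dark blue, circles for replicate 1 and triangles for replicate 2. NOTCH2 lay between 561 and 644 CPM in all 4 libraries, while JAG2 and HES1 stayed below 0.5 CPM.

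Levels between genes were compared per kilobase of annotated exon (CPM per kb). NOTCH2 had the highest level, with a mean over the 4 libraries of 36.1 CPM per kb, and RBPJ followed with 15.4. MAML2, NOTCH1, JAG1 and NOTCH3 had 4.05, 3.93, 3.89 and 3.03 CPM per kb, and in that order neighbouring genes overlapped in their ranges over libraries. HEY1 at 0.513 and HEY2 at 0.472 CPM per kb also overlapped. HES1 at 0.107 and JAG2 at 0.0309 CPM per kb were the lowest, with overlapping ranges. The order of close genes rests on the length used. JAG1 has 9298 bases of annotated exon and 5940 in its longest transcript, where MAML2 has 7109 and 7106. The genes were not ranked by the longest transcript.

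NOTCH2 made up most of the receptor RNA under both conditions. NOTCH1 and NOTCH2 were lower in both carnosine libraries than in both controls, as were 28.8% of all genes tested. NOTCH3 overlapped between the groups. None of these differences passed, and whether the receptors differ from each other in their change was not tested.

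NOTCH1 (ENSG00000148400, chromosome 9, 136494433 to 136545786, minus strand, GRCh38), the receptor best known from T-cell leukaemia, had 39.6 and 30.2 CPM with carnosine, against 51.5 and 41.9 CPM in the controls. Both carnosine libraries were below the lower control, carnosine replicate 1 only slightly. The mean was 34.9 ± 6.70 CPM with carnosine and 46.7 ± 6.78 CPM in controls (SD, n = 2 each). The log2 fold change was -0.42 ± 0.16 (SE; 95% interval -0.80 to -0.04), 1.34-fold lower, with an adjusted p of 0.150. Without carnosine replicate 1 the log2 fold change was -0.64 and the gene was called (adjusted p = 0.0415, with 7.47% of all genes called), and without carnosine replicate 2 it was -0.24. With the replicate number as a block, a fit that called 35.3% of all genes, the adjusted p was 2.78e-06. It was 0.0114 with no filter on low counts (12% of all genes called). In the other alternatives that left no library out, it ran from 0.126 (DESeq2) to 0.233 (total counts only).

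NOTCH2 (ENSG00000134250, chromosome 1, 119911553 to 120069626, minus strand), the receptor mutated in Hajdu-Cheney syndrome, had 561 and 583 CPM with carnosine, against 637 and 644 CPM in the controls. Both groups were tight, and the carnosine libraries lay below the controls. The mean was 572 ± 15.6 CPM with carnosine and 640 ± 5.24 CPM in controls (SD, n = 2 each). Carnosine over control, this was a log2 fold change of -0.16 ± 0.11 (95% interval -0.42 to 0.09), 1.12-fold lower, with an adjusted p of 0.381. NOTCH2NL, a partial copy of NOTCH2 whose reads can match both genes, held 64 and 34 counts with carnosine and 105 and 89 in the controls, beside 29341 to 45268 counts for NOTCH2.

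NOTCH3 (ENSG00000074181, chromosome 19, 15159038 to 15200981, minus strand), the receptor of vascular mural cells, had 39.4 and 25.9 CPM with carnosine, against 30.5 and 18.3 CPM in the controls. The lower carnosine library lay between the controls, and within each group replicate 1 was the higher library. Its log2 fold change was 0.42 ± 0.27 (95% interval -0.23 to 1.07), 1.34-fold higher, with an adjusted p of 0.375. It was 0.08 without carnosine replicate 1 and 0.83 without control replicate 1.

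Within the summed counts per kilobase of the 3 receptors, NOTCH2 took 80.6% and 86.0% with carnosine, against 82.2% and 86.5% in the controls. NOTCH1 took 9.24% and 7.21% with carnosine, against 10.8% and 9.12% in the controls. NOTCH3 took 10.1% and 6.83% with carnosine, against 7.04% and 4.40% in the controls. Every share overlapped between the groups. These shares do not depend on how libraries are scaled, and with 2 libraries a group an exact permutation test could not give a two-sided p under 0.333. The fourth receptor, NOTCH4, had 1 count in control replicate 2 and 0 in each other library, where 3 counts are 0.0422 to 0.0596 CPM, the most that a count of 0 allows in counting error alone.

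**Figure D2:**
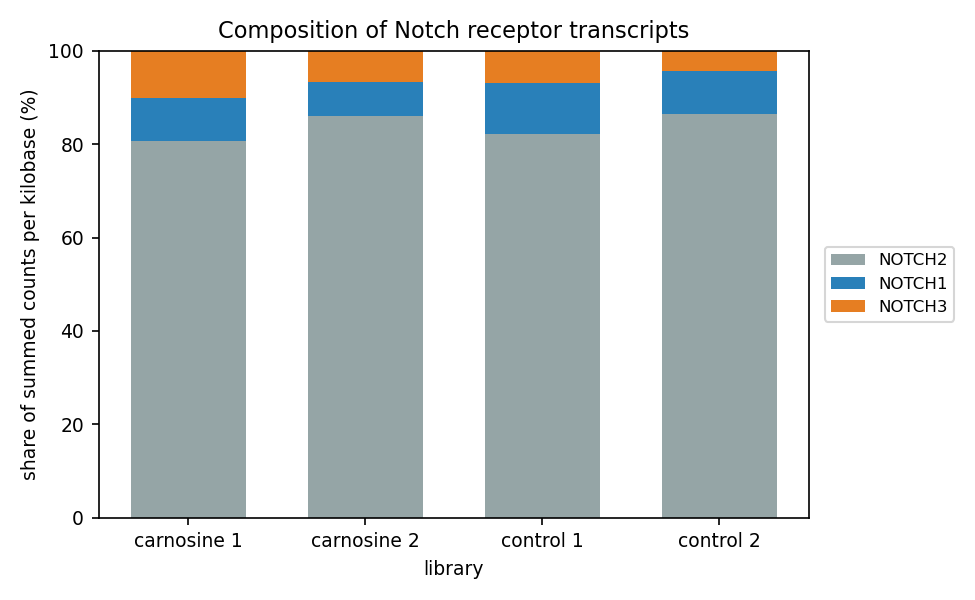
Share of NOTCH2, NOTCH1 and NOTCH3 in their summed counts per kilobase, in percent, 1 bar per library. NOTCH2 took 80.6% to 86.5% in every library, and NOTCH1 was above NOTCH3 in both controls and in carnosine replicate 2.

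Among the ligands, JAG1 and JAG2 were higher in both carnosine libraries than in both controls, as were 27.8% of all genes tested. Neither passed, and JAG2 was tested only because it was high with carnosine. JAG1 supplied nearly all of the Jagged RNA.

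JAG1 (ENSG00000101384, chromosome 20, 10637684 to 10673999, minus strand), the ligand mutated in Alagille syndrome, had 35.2 and 47.0 CPM with carnosine, against 31.4 and 31.3 CPM in the controls. The controls were almost equal and the carnosine libraries were apart from each other. The mean was 41.1 ± 8.29 CPM with carnosine and 31.3 ± 0.0945 CPM in controls (SD, n = 2 each). This was a log2 fold change of 0.39 ± 0.15 (95% interval 0.04 to 0.74), 1.31-fold higher, with an adjusted p of 0.143. It was 0.58 and called without carnosine replicate 1 (adjusted p = 0.0265), and 0.17 without carnosine replicate 2. With the replicate number as a block, a fit that called 35.3% of all genes, the adjusted p was 6.29e-05. It was 0.028 with no filter on low counts (12% of all genes called). In the other alternatives that left no library out, it ran from 0.109 (total counts only) to 0.161 (limma-voom). An RNA of the opposite strand that shares 79 exonic bases with JAG1 had 5 and 2 counts with carnosine and 1 and 0 in the controls.

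JAG2 (ENSG00000184916, chromosome 14, 105140981 to 105168824, minus strand), the second Jagged ligand, had 29 and 10 counts with carnosine, against 3 and 4 counts in the controls. These are 0.482 and 0.199 CPM with carnosine, and 0.0422 and 0.0682 CPM in the controls. The carnosine libraries differed from each other more than 2-fold, and both lay above the controls. JAG2 passed the filter on low counts only through them, so its difference is part of why it was tested. The log2 fold change was 2.62 ± 0.74 (95% interval 0.86 to 4.38), with an adjusted p of 0.0757, and ran from 1.83 to 3.10 when 1 library was left out. Of the other ligands, DLL1 and DLL3 had 0 counts in every library and DLL4 had 0 and 4 counts with carnosine and 0 in each control. DNER, a noncanonical ligand and the ligand gene outside the 10 with the most counts, had 7262 and 7530 counts with carnosine, against 9120 and 10025 in the controls, a log2 fold change of -0.15 ± 0.17 (adjusted p = 0.630).

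In the nuclear complex, RBPJ overlapped between the groups, and MAML2 was slightly higher in both carnosine libraries. Neither passed.

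RBPJ (ENSG00000168214, chromosome 4, 26163455 to 26435131, plus strand), the DNA-binding partner of the Notch intracellular domain, had 132 and 161 CPM with carnosine, against 142 and 136 CPM in the controls. The controls lay between the carnosine libraries. Its log2 fold change was 0.07 ± 0.12 (95% interval -0.22 to 0.37) and the adjusted p was 0.749. Its sign turned without carnosine replicate 2, where the value was -0.08. The processed copies RBPJP2, RBPJP5, RBPJP6 and RBPJP7 had 0 counts in every library.

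MAML2 (ENSG00000184384, chromosome 11, 95976598 to 96343180, minus strand), a Mastermind-like coactivator, had 33.0 and 28.9 CPM with carnosine, against 27.6 and 25.5 CPM in the controls. The groups did not overlap, and the lower carnosine library was close to the higher control. MAML2 had a log2 fold change of 0.22 ± 0.12 (95% interval -0.05 to 0.49), 1.17-fold higher, with an adjusted p of 0.270.

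All 3 target genes had log2 fold changes above 0, as did 8191 of the 16340 genes tested, and none of the 3 passed. HEY2 turned to -0.20 without carnosine replicate 1. Of the 2 other targets tested, 1 was above 0 and 1 below. HES1 and HEY1 were higher in both carnosine libraries than in both controls, as were 27.8% of all genes tested, and HEY2 overlapped.

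HES1 (ENSG00000114315, chromosome 3, 194136145 to 194138732, plus strand), a repressor that holds back neuronal differentiation and whose upstream stretch is shown above, had 20 and 20 counts with carnosine, against 7 and 3 counts in the controls. These are 0.333 and 0.397 CPM with carnosine, and 0.0984 and 0.0511 CPM in the controls. The carnosine libraries were close to each other and well above both controls, at a level near the filter. HES1 passed that filter only through its carnosine libraries, so its difference is part of why it was tested. The log2 fold change was 2.22 ± 0.61 (95% interval 0.78 to 3.67), 4.67-fold higher, with an adjusted p of 0.0695. It ran from 1.86 to 2.78 when 1 library was left out. At these counts a log2 fold change of 2.56 would have been needed for an adjusted p of 0.05.

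HEY1 (ENSG00000164683, chromosome 8, 79764010 to 79767863, minus strand) codes for a repressor that acts in vascular and cardiac development. Its counts were 127 and 103 with carnosine, against 66 and 91 in the controls. In CPM these were 2.11 and 2.05 with carnosine, and 0.928 and 1.55 in the controls. The carnosine libraries were nearly equal and above both controls, which differed from each other. HEY1 had a log2 fold change of 0.75 ± 0.33 (95% interval -0.02 to 1.52), 1.68-fold higher, with an adjusted p of 0.194. Leaving out control replicate 1 gave 0.42 and leaving out control replicate 2 gave 1.16.

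HEY2 (ENSG00000135547, chromosome 6, 125747664 to 125761269, plus strand), the closely related repressor whose upstream stretch is also shown, had 143 and 43 counts with carnosine, against 84 and 45 in the controls. In CPM these were 2.38 and 0.854 with carnosine, and 1.18 and 0.767 in the controls. Carnosine replicate 1 stood above the other 3 libraries, and carnosine replicate 2 lay between the controls. The log2 fold change was 0.73 ± 0.51 (95% interval -0.48 to 1.94), with an adjusted p of 0.408.

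**Figure D3:**
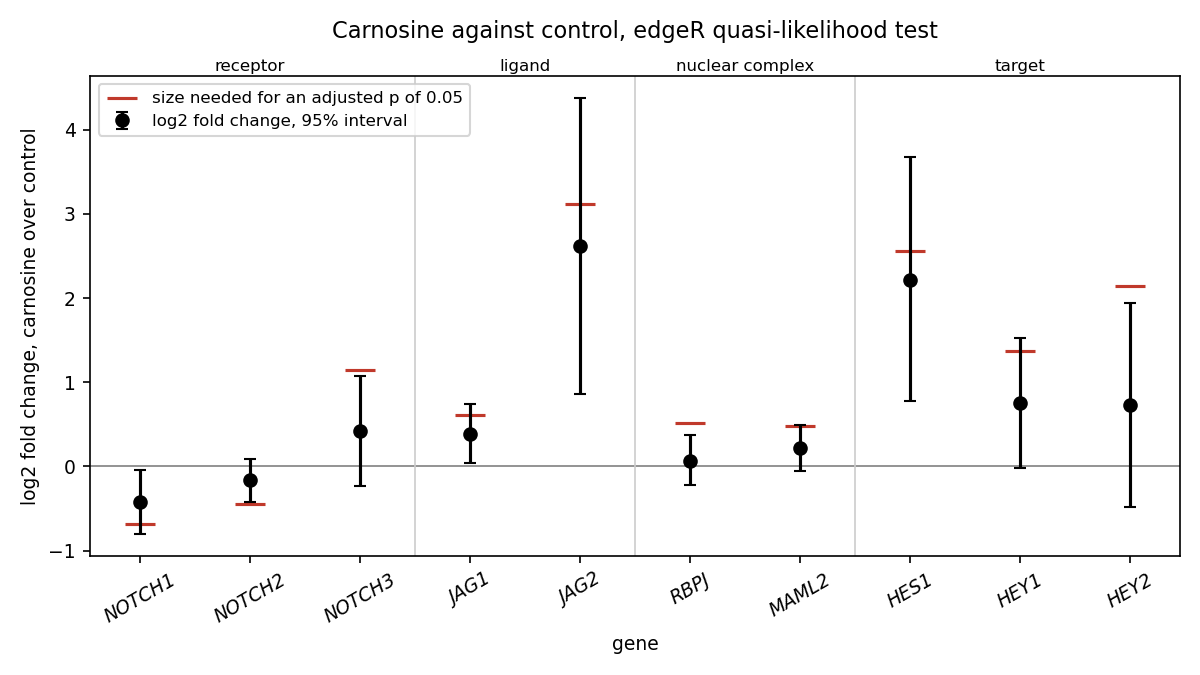
Log2 fold change of each gene, carnosine over control, with its 95% interval (black, n = 2 libraries each) and the size that would have given an adjusted p of 0.05 (red bar). No point lies beyond its red bar, and the intervals of NOTCH1, JAG1, JAG2 and HES1 leave out 0. JAG2 and HES1 passed the filter on low counts only because they were high with carnosine, so their difference is part of why they were tested.

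The size of change that could be called differed widely between these genes. With the spread estimated for each, a change of 1.37-fold in NOTCH2, 1.40-fold in MAML2 and 1.44-fold in RBPJ would have passed. NOTCH1 would have needed 1.60-fold and JAG1 1.53-fold, NOTCH3 2.21-fold and HEY1 2.58-fold. HEY2, HES1 and JAG2 would have needed 4.41-fold, 5.91-fold and 8.70-fold. The upper bound of the 95% interval was 1.07-fold for NOTCH2 and 1.29-fold for RBPJ, and the lower bounds were 0.747-fold and 0.858-fold. For HEY2 the interval ran from 0.718-fold to 3.84-fold, all of it short of the 4.41-fold needed for a call.

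**Figure D4:**
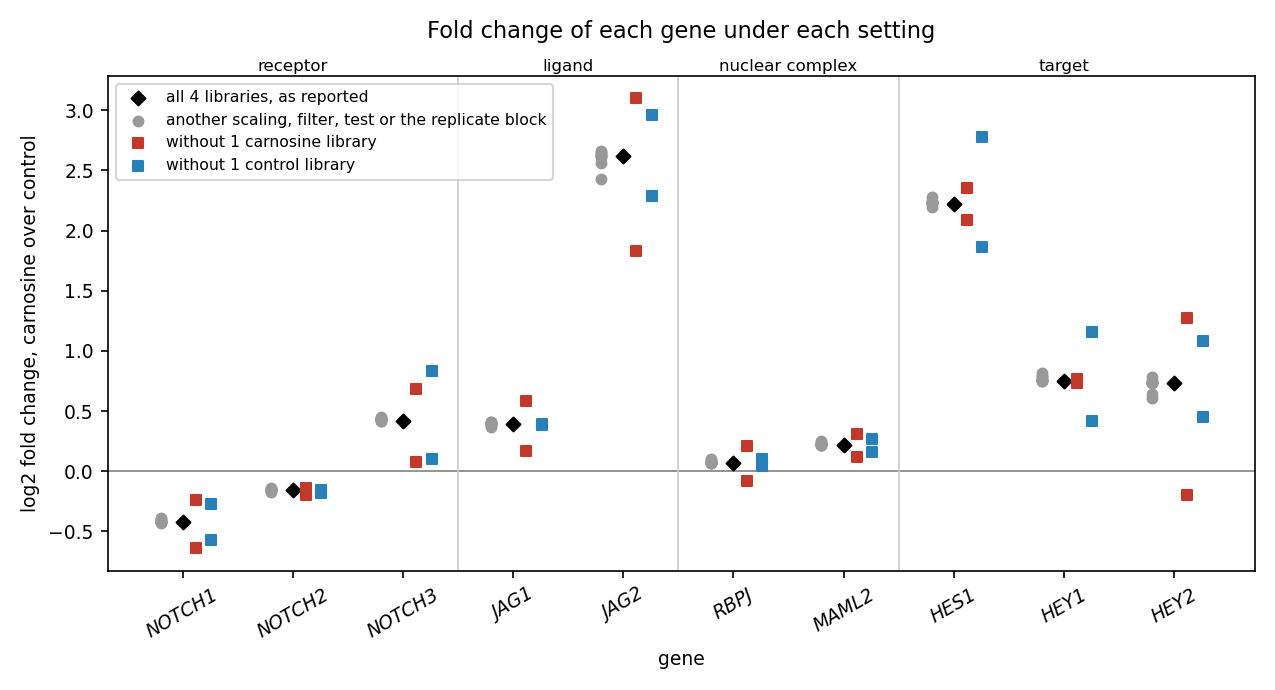
Log2 fold change of each gene, carnosine over control, with all 4 libraries (black), under another scaling, filter, test or the replicate block (grey), and with 1 carnosine (red) or control (blue) library left out. The grey points stay near the black ones, while leaving out a library moved NOTCH3 between 0.08 and 0.83 and HEY2 between -0.20 and 1.27.

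By pattern, the genes most like NOTCH2, the gene of the set with the most counts, were NDUFV1, GGPS1 and MALSU1. Their centred log2 CPM differed from that of NOTCH2 by root mean squares of 0.00522, 0.0111 and 0.0118 over the 4 libraries, out of 11966 genes with a mean count of at least 100. With 4 libraries many genes come close, and the likeness is a description.

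Around these 10 genes, a list of 60 others of the pathway was read from the same fit. Of these 45 were tested, 3 rose, 0 fell and 42 did not pass, against 3.95% of all genes higher and 4.36% lower. The 3 are 6.67% of those tested. The groups did not overlap for 26 of the 45 genes (57.8%), a share near the 56.5% of all genes, and the median log2 fold change was 0.09. The list was chosen by role.

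ADAM10, the protease that makes the ligand-induced cut in Notch receptors, had 217 and 236 CPM with carnosine, against 152 and 156 CPM in the controls. Both carnosine libraries stood well above the controls, a log2 fold change of 0.56 ± 0.10 (SE, n = 2 each), 1.47-fold higher, with an adjusted p of 0.0281. Its call ended without control replicate 1 (adjusted p = 0.140) or control replicate 2 (0.132), with log2 fold changes of 0.54 and 0.57. None of the other 7 genes of receptor cleavage passed, among them the gamma-secretase subunits, with 1 at an unadjusted p under 0.05 (APH1A, log2 fold change -0.34, which DESeq2 called).

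MAML3, the third Mastermind-like coactivator, had 6.45 and 5.82 CPM with carnosine, against 2.91 and 3.72 CPM in the controls. It was 1.85-fold higher, a log2 fold change of 0.89 ± 0.20 (adjusted p = 0.0436), where MAML2 had 0.22 and MAML1 had 0.04. Whether the Mastermind-like genes differ from each other in their change was not tested. The call of MAML3 ended without control replicate 1, control replicate 2 or carnosine replicate 1 (adjusted p = 0.183, 0.0594 and 0.0887) and with total counts only (0.0549), with log2 fold changes of 0.72, 1.07, 0.81 and 0.92. EP300, the coactivator gene with the most counts, did not pass, at 0.16 on the log2 scale (adjusted p = 0.641).

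MIB2, a ubiquitin ligase that acts on Notch ligands in the sending cell, had 27.7 and 22.4 CPM with carnosine, against 16.7 and 13.9 CPM in the controls. It was 1.64-fold higher, a log2 fold change of 0.71 ± 0.15 (adjusted p = 0.0399). The call ended without control replicate 2 or carnosine replicate 1 (adjusted p = 0.146 and 0.0806) and with total counts only (0.0549), with log2 fold changes of 0.58, 0.54 and 0.74. MIB1, the gene of ligand ubiquitination with the most counts, had 0.17 ± 0.10 and did not pass (adjusted p = 0.335). MIB2 shares 219 exonic bases with a gene of the opposite strand that had 149 and 102 counts with carnosine and 125 and 149 in the controls, MAML3 shares 252 with MGST2, and whether strand was used in counting is not known here.

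In the remaining roles 0 genes passed over all genes tested. POFUT1, which adds the O-fucose that Notch needs, had -0.04 (log2 fold change, adjusted p = 0.848), and 3 of the 6 genes of receptor glycosylation and furin had an unadjusted p under 0.05, as did 27.4% of all genes tested. The corepressor NCOR1 had 0.30 (adjusted p = 0.119), with 5 of 11 corepressors at an unadjusted p under 0.05. The ligase ITCH, which marks Notch for degradation, had 0.09 (adjusted p = 0.652), with 3 of 7 negative regulators under 0.05. Coactivators had 2 of 7, receptor cleavage 2 of 8 and ligand ubiquitination 1 of 3, while the tested ligand and the 2 tested targets had 0. Of all 45, 16 had an unadjusted p under 0.05, 12 up and 4 down, against 27.4% of all genes tested in either direction. The share of all genes in each direction at that p was not counted. DESeq2 called 8 of the 45, 5 up and 3 down, against 13.5% of all genes (1033 up and 1178 down). Limma-voom called 4, all up, against 8.09% of all genes (627 up and 695 down). Among the other target genes, HES5, HEYL and NRARP had 0 counts in every library, and HES6, the target with the most counts, did not pass at -0.25 (log2 fold change, adjusted p = 0.365), with 364 and 279 counts with carnosine and 512 and 388 in the controls.

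**Figure D5:**
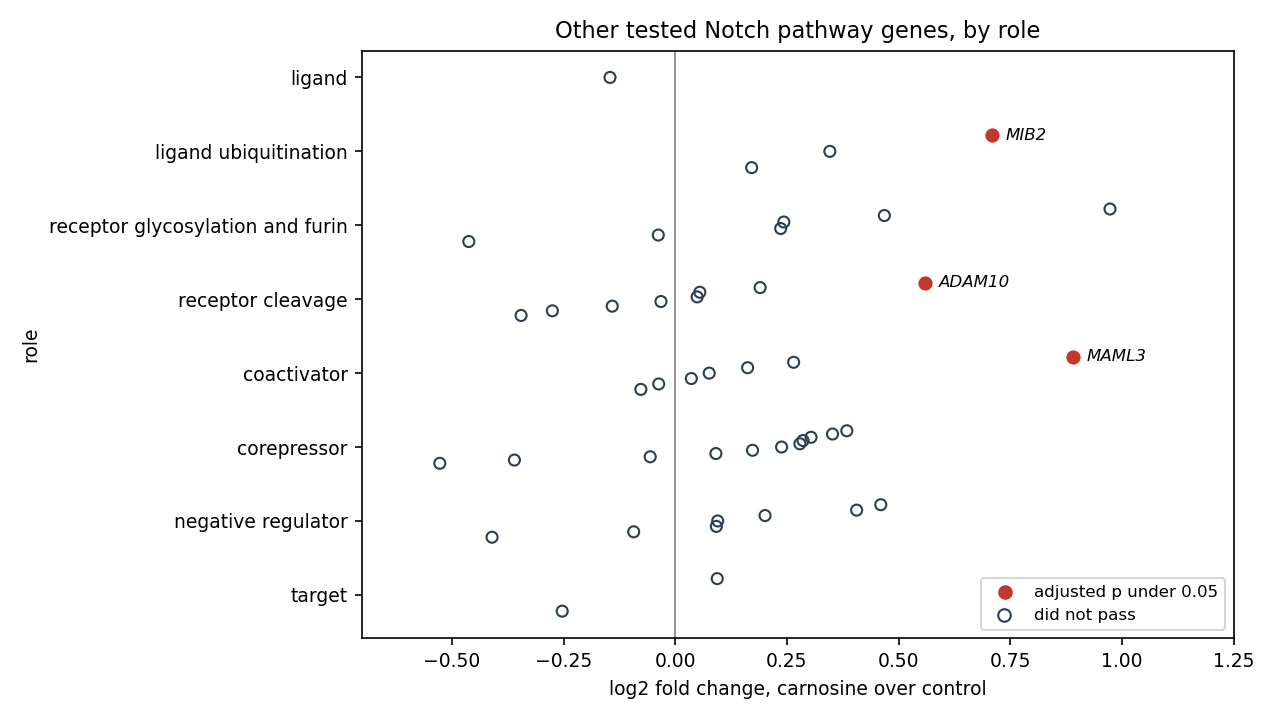
Log2 fold changes, carnosine over control, of the 45 other pathway genes tested, 1 point per gene, in rows by role. The filled points mark ADAM10 (0.56), MIB2 (0.71) and MAML3 (0.89), and the open points did not pass.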

How the data were processed

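Total RNA of 4 U87 samples was sequenced as pairs of 101-base reads. The authors deposited raw counts per gene with no normalization. The tools named in the submitters' processing notes are HISAT2 2.1.0, HTSeq 0.6.1 and bcl2fastq 2.17.0, with the build hg38. No source used here gives the annotation release, the strand setting or the treatment of multiply matching reads. Columns were matched to samples by title.

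Genes were kept by edgeR's filterByExpr (10 counts, or 0.171 CPM at the median depth, in 2 libraries, 15 in all), leaving 16340 of 58219. edgeR 4.0.16 in R 4.3.3 (quasi-likelihood F test, two-sided, TMM factors 0.976 to 1.04, group as the only term) gave p values, Benjamini-Hochberg adjusted over all genes tested at 0.05. SE is the absolute log2 fold change over the square root of F, and intervals use 6.92 degrees of freedom. The size needed for a call uses the largest called p, 0.00415. DESeq2 1.42.0 and limma-voom 3.58.1 were alternatives. The test was tried on simulated counts.

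Coordinates and exon lengths come from GENCODE 29 (GRCh38) by identifier without version, and start sites and upstream sequences from RefSeq (GRCh38.p14). The 10 genes and the lists were chosen with earlier results of these data known. Named were the 10 genes, passing members of the 60-gene list, the member of each role with the most counts, and the 3 genes most like NOTCH2. Some other members of the list were named for counts at or near 0, for comparison (MAML1) or for their unadjusted p (APH1A). These and the copies of members were named after their values were seen. Libraries of 1 group differed by more than counting error, with a chi-square per degree of freedom of 39.7 for carnosine and 25.7 for the controls.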

Additional observations from a re-analysis of the deposited data

How the results depend on the processing

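The direction of NOTCH1, NOTCH2, NOTCH3, JAG1, JAG2, MAML2, HES1 and HEY1 held in all 12 alternatives. For all of these but NOTCH3 the groups did not overlap. Leaving out 1 library could therefore hardly turn their sign, and the steady direction is no further evidence. With 1 library left out, the log2 fold change of RBPJ ran from -0.08 (without carnosine replicate 2) to 0.21, and that of HEY2 from -0.20 (without carnosine replicate 1) to 1.27. Other scalings, the filter on a mean count of 10, DESeq2 and limma-voom called 0 of the 10, though DESeq2 gave HES1 and JAG2 no adjusted p. With no filter on low counts 5 of the 10 were called (NOTCH1, NOTCH3, JAG1, JAG2 and HES1) beside 3145 of all genes (12%). In that fit 14 of the 53 other pathway genes tested were called. With 1 library left out, the counts ran from 505 to 1595 for all genes, from 0 to 2 for the 10 genes (JAG1 and NOTCH1 without carnosine replicate 1, where 7.47% of all genes were called) and from 0 to 6 for the other pathway genes (0 without control replicate 2, 6 without carnosine replicate 2). The lowest and highest counts for the other pathway genes came from the fits with the lowest and highest counts for all genes. Fits with 1 library left out have 1 residual degree of freedom, and the lone library is assumed to vary like the other group. Of all genes DESeq2 called 2211 (13.5%), with 8 other pathway genes. With total counts only, 1150 of all genes (7.04%) were called, with 1 other pathway gene, ADAM10.

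Labels number the replicates 1 and 2 in both groups without saying that a number marks a shared culture or day. Deviations of same-numbered libraries correlated with r = 0.286 across genes, which are not independent, and 2 pairs do not settle a pairing. The fit with the replicate block called 5767 genes (35.3%), 7 of the 10 (all but NOTCH2, RBPJ and HEY2) and 21 of the other pathway genes. Like the fit with no filter, it estimated no spread of variances between genes, so each gene was given the common trend.

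With the length of the longest transcript, the mean share of NOTCH1 was 6.49% with carnosine and 7.83% in controls, and that of NOTCH2 in controls was 87.8%.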
